A study of Mus musculus with 15 samples.

Results

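The receptors for GABA, glycine and glutamate were described in sorted mouse islet cells through the 52 genes whose symbol names a GABA-A, GABA-B, glycine, AMPA, kainate, NMDA, delta-type or metabotropic glutamate receptor subunit, out of 38283 genes in the deposited table. Genes entered the set by symbol, and the set was chosen with earlier results of these data known. RNA was sequenced from 15 samples. Glu-Venus mice gave 5 of alpha and 4 of beta cells, and 6 of delta cells came from Sst-CreXROSA26EYFP/EYFP mice, all on a C57BL/6 background. Alpha cells carried the Venus fluorophore under the proglucagon promoter, beta cells were the Venus-negative cells with high scatter and autofluorescence, and delta cells carried EYFP after recombination by a Cre driven by the Sst promoter. Each sample was sorted from islets pooled over several mice, so that p-values measure the spread between pools. Since the delta cells also came from another mouse line, effects of line and of cell type cannot be told apart. Ages and sexes of the mice are not given here.

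GABA-A and glycine receptors are pentameric chloride channels, and the heteromeric glycine receptor pairs alpha subunits with the beta subunit encoded by Glrb. GABA-B receptors are G-protein coupled receptors that work as a heterodimer, in which Gabbr1 encodes the GABA-binding subunit and Gabbr2 the subunit that couples to the G-protein and carries the dimer to the cell surface. AMPA, kainate and NMDA receptors are cation channels opened by glutamate, NMDA receptors need the obligatory subunit encoded by Grin1 together with other subunits, and metabotropic glutamate receptors are G-protein coupled. In islets, GABA is made in beta cells and glutamate is released together with glucagon by alpha cells, so receptors for either transmitter are candidates for signalling between neighbouring cells.

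Promoter sequence was taken from RefSeq (GRCm38.p6) for the receptor genes whose levels carry the comparisons below. Of the 52 receptor genes, 36 had an entry, and so did 8 of the 11 that were tested. The first stretch belongs to Gabbr2, whose level differed most between beta and delta cells, and the second to Grin1, which was low in alpha cells. Gria2 and Glrb are shown because they are neighbours on chromosome 3 and both were highest in alpha cells, and Gabrg1 because it was listed at 0 in every beta cell sample. Each is written 5′ to 3′ along the minus strand, on which all 5 genes lie, and ends at the base before the annotated gene start, with each CpG dinucleotide in capitals. They lie at chr4:46991874-46991964, chr2:25319188-25319437, chr3:80802836-80803085, chr3:80913661-80913910 and chr5:70842618-70842867. The RefSeq start of Gabbr2 lies inside the GENCODE gene, so 91 bases in front of the GENCODE start are printed for it and 250 bases for each of the others.
Gabbr2: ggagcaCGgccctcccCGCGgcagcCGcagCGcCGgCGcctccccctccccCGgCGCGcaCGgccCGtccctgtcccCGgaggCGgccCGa
Grin1: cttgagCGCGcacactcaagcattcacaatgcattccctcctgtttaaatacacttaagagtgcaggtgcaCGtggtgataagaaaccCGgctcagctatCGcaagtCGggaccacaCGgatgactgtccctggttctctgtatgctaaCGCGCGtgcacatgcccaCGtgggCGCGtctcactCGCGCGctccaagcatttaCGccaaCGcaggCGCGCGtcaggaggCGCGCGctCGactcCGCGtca
Gria2: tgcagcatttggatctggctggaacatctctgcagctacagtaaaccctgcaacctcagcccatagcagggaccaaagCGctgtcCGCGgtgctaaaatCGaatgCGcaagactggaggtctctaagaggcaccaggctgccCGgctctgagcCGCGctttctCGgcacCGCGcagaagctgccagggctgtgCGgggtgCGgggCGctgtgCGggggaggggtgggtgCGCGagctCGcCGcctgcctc
Glrb: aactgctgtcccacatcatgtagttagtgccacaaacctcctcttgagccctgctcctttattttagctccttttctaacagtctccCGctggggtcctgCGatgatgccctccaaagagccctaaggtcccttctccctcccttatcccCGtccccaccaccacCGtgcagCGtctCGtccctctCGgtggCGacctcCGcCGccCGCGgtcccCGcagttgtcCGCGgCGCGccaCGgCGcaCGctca
Gabrg1: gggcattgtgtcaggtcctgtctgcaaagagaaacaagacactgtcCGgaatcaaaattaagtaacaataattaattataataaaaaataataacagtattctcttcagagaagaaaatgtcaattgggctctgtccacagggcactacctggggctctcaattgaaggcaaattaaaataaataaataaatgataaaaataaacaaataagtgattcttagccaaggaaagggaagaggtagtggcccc
In the 250 bases before the RefSeq start, CpG dinucleotides numbered 37 for Gabbr2, 27 for Grin1, 20 for Glrb, 19 for Gria2 and 1 for Gabrg1. The median over 27025 promoter windows of the same length was 6. The GC content was 80.8% for Gabbr2, 58.8% for Grin1, 64.8% for Gria2, 62.4% for Glrb and 35.6% for Gabrg1, with a median of 52.0% over all windows. The letters TATAAA, found on either strand in 13.0% of all windows, and CAGATG, an E-box of the kind bound by NEUROD1 found in 14.5%, were in none of these 5 windows. The GC box GGGCGG, in 32.9% of all windows on either strand, occurred 2 times in the Gabbr2 window and 1 time in the Glrb window. These are descriptions of the letters and say nothing of which factors bind there.

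The labels were checked against the hormone genes. Gcg in beta and delta cells was at 0.233% and 0.189% of its mean in alpha cells. Ins2 in alpha and delta cells was at 1.87% and 1.95% of its mean in beta cells, and Sst in alpha and beta cells at 0.992% and 0.101% of its mean in delta cells. Ppy, the pancreatic polypeptide gene, was between 17728 and 41392 FPKM in alpha samples and between 10857 and 48600 FPKM in delta samples, against at most 98.1 FPKM in beta samples, so PP cell transcripts moved with the alpha and delta groups, and their part in the differences from beta cells was not tested. The summed level of 8 acinar genes reached 76.9 FPKM in alpha, 10.1 FPKM in beta and 553 FPKM in delta samples, and that of 6 Schwann cell and glial genes 7.19, 3.52 and 9.26 FPKM. That of 5 ductal genes reached 172, 24.7 and 101 FPKM, and every alpha sample lay above every beta sample. Immune genes reached 27.6, 21.9 and 44.3 FPKM, endothelial genes 2.88, 3.34 and 6.17 FPKM, and stromal genes 3.79, 0.00687 and 0.0576 FPKM. The part of such transcripts in the differences was not tested. Read totals are not in the table. Low values that moved in steps of 1 read pointed to approximate depths of 7.43 M to 37.0 M reads in 9 samples. The steps were weak, since 25.7% to 52.4% of low values in these samples lay close to a whole read. In the other 6, which include every beta sample, this was 17.6% to 24.9%, and no step was resolved. So no floor of detection is given, and a gene without signal is said to be listed at 0.

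Most of the 52 receptor genes were scarcely detected. Those listed at 0 in all 15 samples were 8 genes, Gabra2, Gabra6, Gabrb2, Gabrr3, Gria1, Gria4, Grm2 and Grm7. A further 33 were above 0 in at least 1 sample but had a mean of at most 1 FPKM in every cell type, the highest single value among them being 1.62 FPKM for Gabra4 in Alpha 3. The remaining 11 passed the filter of a mean above 1 FPKM in at least 1 cell type: 3 of the 19 GABA-A genes, Gabrg1 among them, Gabbr1 and Gabbr2 for GABA-B, Glrb of the 5 glycine receptor genes, Gria2 and Gria3 of the 4 AMPA genes, Grik2 and Grik5 of the 5 kainate genes, and Grin1 of the 7 NMDA genes. None of the 8 metabotropic genes and neither of the 2 delta-type genes passed it. By mean level, Glrb ranked 1419th of all genes in the table in alpha cells.

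**Figure D1:**
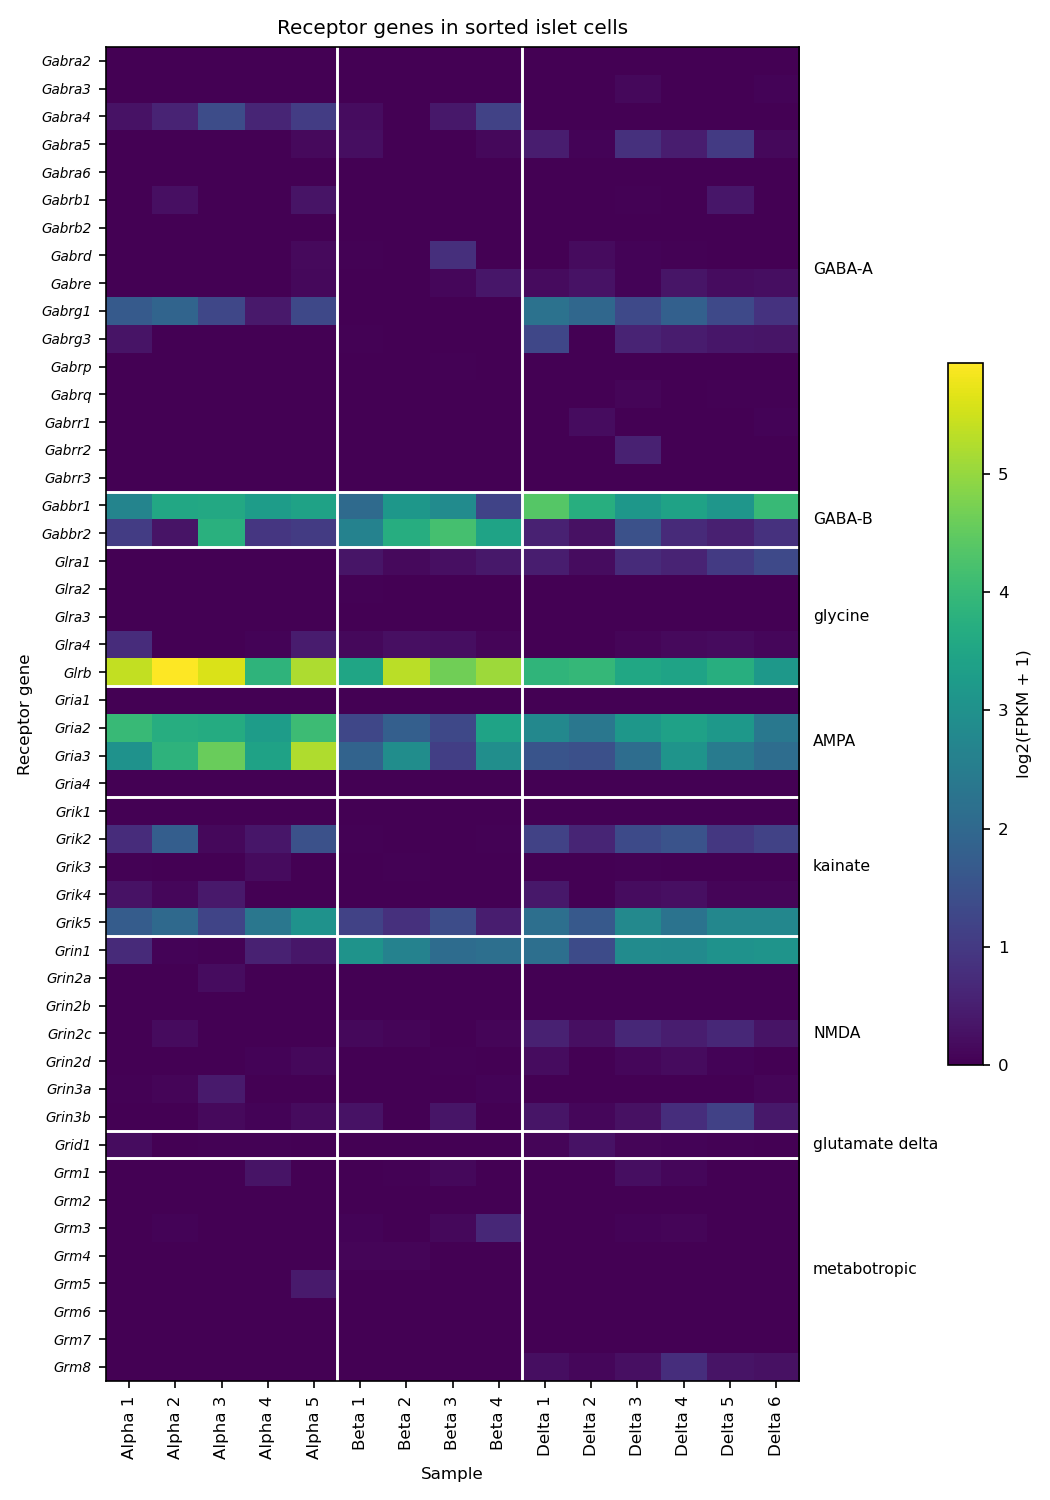
Level of 48 receptor genes (rows, grouped by family) in each of the 15 samples (columns, grouped by cell type), as log2(FPKM + 1) on the colour scale. The Glrb row peaks at 60.5 FPKM in Alpha 2, the Gabbr2 row lies between 5.17 and 17.2 FPKM in the 4 beta samples and Alpha 3 and at or below 1.79 FPKM elsewhere, and 34 of the 48 rows stay below 1 FPKM in every sample.

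Differences between cell types were tested with limma on log2(FPKM + 1) in 1 fit over all 15 samples and 14405 genes, with Benjamini-Hochberg adjustment over all of them, and a call required an adjusted p under 0.05. All differences below are of mean log2(FPKM + 1), a scale that understates changes of low genes. In bulk samples, fewer expressing cells and less RNA per cell cannot be told apart. Across the 3 cell types the F-test called 8 of the 11 receptor genes, against 16.0% of all genes tested, and Gabbr1 (adjusted p = 0.0703) and Grik2 (adjusted p = 0.0653) were among the 3 not called. The 11 genes had to be at least 1 FPKM somewhere to be tested, so these counts do not speak for the 52. The 3 pairwise comparisons share samples and are not independent of each other.

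Between beta and alpha cells, 7.66% of all genes were called and 5 of the 11 receptor genes. Gabbr2 and Grin1 were higher in beta cells, the direction of 2.84% of all genes, and Gria2, Gria3 and Gabrg1 were lower, the direction of 4.82%. The median difference of the 11 was -0.88, beside -0.13 over all genes tested. In a fit of the alpha and beta samples alone only Grin1 of the 5 was still called, and without the filter on low values Gabbr2 and Gria3 were lost. Between delta and alpha cells, 6.81% of all genes and 4 of the 11 were called. The 2 higher in delta cells (5.33% of all genes) included Grin1, and Glrb and Gria3 were lower (1.48%), with a median difference of 0.27 beside 0.13 over all genes. Between delta and beta cells, 14.7% of all genes and 6 of the 11 were called. The 5 higher in delta cells (11.7% of all genes) included Gabrg1, Gabbr1, Grik2 and Grik5, and Gabbr2 was lower (2.99%), with a median difference of 1.12 beside 0.30 over all genes. Gabbr1 was among those lost in a fit of the delta and beta samples alone. Scaling by median-ratio size factors moved the all-gene median of delta against beta cells from 0.30 to 0.02, and the split of its calls from 1683 higher and 431 lower to 1379 higher and 1297 lower. The receptor calls then were 3 higher and 2 lower. For beta against alpha cells that scaling changed the split over all genes from 409 higher and 695 lower to 1091 and 981, with 2 receptor genes higher and 3 lower as before, and for delta against alpha cells from 768 and 213 to 722 and 342, again with 2 and 2 receptor genes.

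**Figure D2:**
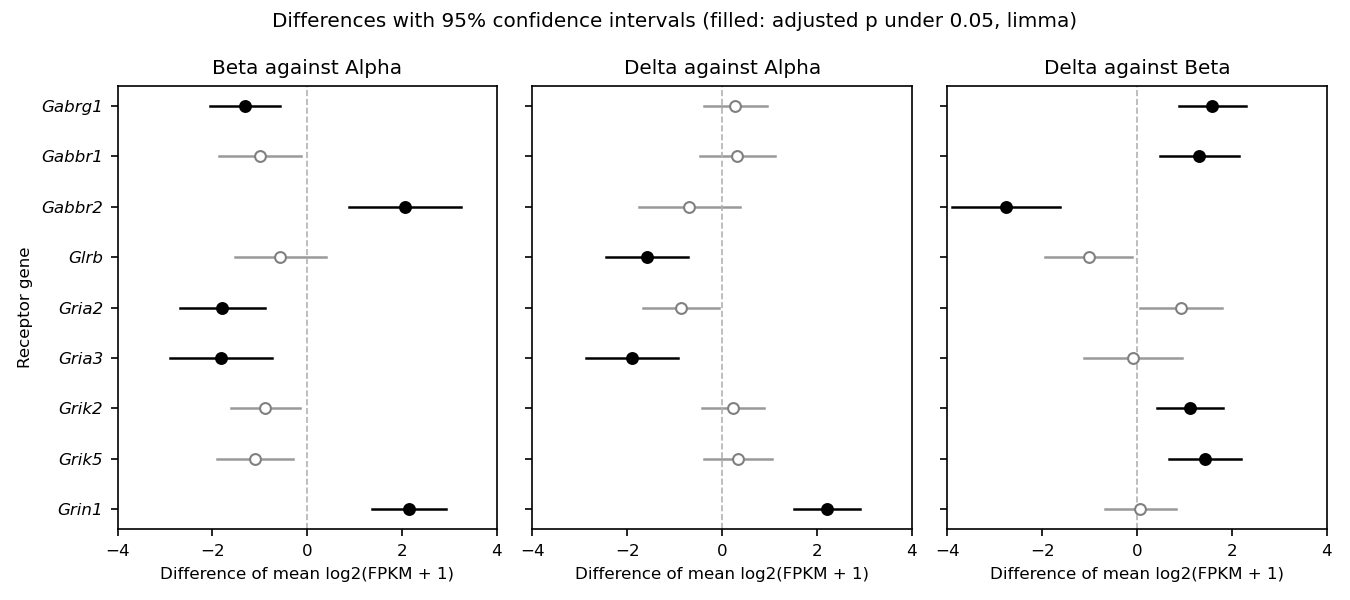
Difference of mean log2(FPKM + 1) (horizontal axis) with its 95% confidence interval for 9 of the tested receptor genes in the 3 comparisons; filled points have an adjusted p under 0.05 in limma. Gabbr2 lies at 2.07 in beta against alpha cells and at -2.76 in delta against beta cells, and Grin1 above 2 in both comparisons with alpha cells.

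The GABA-B receptor genes were the only family in which every member was tested. Gabbr2 (ENSMUSG00000039809, chr4:46662305-46991873) marked the beta cells. It was at 5.17, 12.1, 17.2 and 9.86 FPKM in beta samples 1 to 4, and at 1.07, 0.240, 12.7, 0.927 and 1.04 FPKM in alpha samples 1 to 5. In the 6 delta samples it ran from 0.207 over a median of 0.549 to 1.79 FPKM. Every delta sample lay below every beta sample, and so did every alpha sample but Alpha 3, which fell among the beta samples. Gabbr2 was lower in delta cells than in beta cells (-2.76, 95% CI -3.90 to -1.63, adjusted p = 0.00237), with a ratio of mean FPKM of 15.4, and this call held whichever sample was left out (adjusted p up to 0.0107). It was higher in beta cells than in alpha cells by 2.07 (95% CI 0.89 to 3.25, adjusted p = 0.033). That call was lost when any 1 of Alpha 1, 2, 4 or 5 or Beta 2, 3 or 4 was left out (adjusted p up to 0.0817), whereas without Alpha 3 the difference was 2.66 (adjusted p = 0.000301). Of the 5 beta cell marker genes, Alpha 3 had Ins1 at 2208 FPKM, Ins2 at 5131 FPKM, Slc2a2 at 1.45 FPKM, Ucn3 at 1.29 FPKM and Mafa listed at 0. Each of these values lay within the range of the other alpha samples, which was 1033 to 3583 FPKM for Ins1, 2634 to 9094 FPKM for Ins2, 0.753 to 2.98 FPKM for Slc2a2, 1.08 to 7.26 FPKM for Ucn3 and 0 to 0.358 FPKM for Mafa. The lowest beta sample was at 26229.6, 91248, 126, 256 and 0.743 FPKM for the same genes. The Gabbr2 difference between delta and alpha cells was -0.69 (95% CI -1.76 to 0.38, adjusted p = 0.565), and -0.10 without Alpha 3.

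Gabbr1 (ENSMUSG00000024462, chr17:37045966-37075067) ran the other way. It was at 5.46, 10.8, 10.9, 8.78 and 9.76 FPKM in alpha samples, at 3.16, 7.89, 6.28 and 1.29 FPKM in beta samples and from 7.70 over 10.98 to 19.7 FPKM in delta samples, so that the groups overlapped in each comparison. Gabbr1 was higher in delta cells than in beta cells by 1.32 (95% CI 0.48 to 2.15, adjusted p = 0.0346). The call was lost without any 1 of Beta 1 or 4 or Delta 1, 2, 4 or 6 (adjusted p up to 0.143) and under median-ratio scaling (0.93, adjusted p = 0.151) and quantile normalization (0.96, adjusted p = 0.123). Its differences between beta and alpha cells (-0.99, adjusted p = 0.157) and between delta and alpha cells (0.32, adjusted p = 0.736) were not called. The balance of the 2 subunits followed: the ratio of Gabbr1 to Gabbr2 had a median of 9.43 in alpha, 0.488 in beta and 18.3 in delta samples. It was at most 0.654 in beta samples and at least 4.43 in delta samples, and in alpha samples ran from 0.863, in Alpha 3, to 44.9. The summed level of both subunits was 12.3 ± 6.55 FPKM (SD, n = 5) in alpha, 15.7 ± 7.17 FPKM (n = 4) in beta and 12.8 ± 4.46 FPKM (n = 6) in delta cells.

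**Figure D3:**
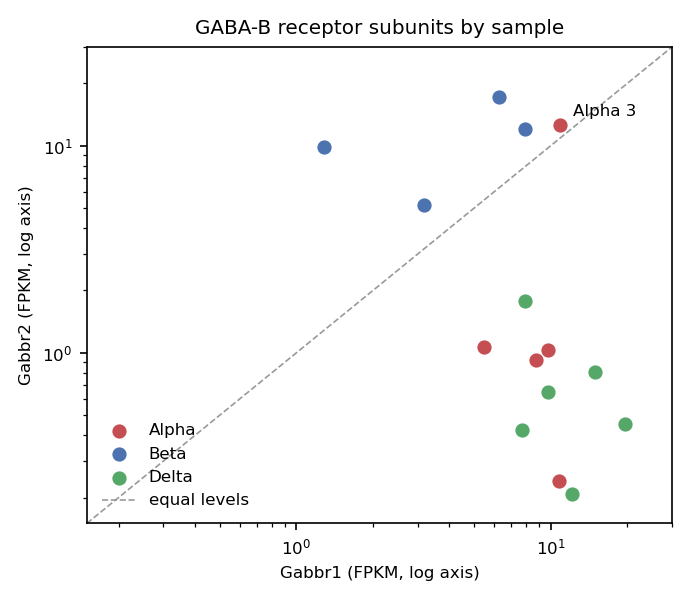
Gabbr2 against Gabbr1 (FPKM, both axes logarithmic) in each of the 15 samples, coloured by cell type, with a dashed line where both are equal. The 4 beta samples and Alpha 3 lie above the line and all other samples below it.

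Among the GABA-A genes, Gabrg1 encodes a gamma subunit, a class that helps to anchor the receptor and to set its benzodiazepine sensitivity. Gabrg1 (ENSMUSG00000001260, chr5:70751047-70842617) was at 2.23, 2.78, 1.39, 0.334 and 1.45 FPKM in alpha samples, was listed at 0 in all 4 beta samples, and ran from 0.817 over 2.02 to 3.70 FPKM in delta samples. It was lower in beta cells than in alpha cells (-1.32, 95% CI -2.05 to -0.58, adjusted p = 0.0305) and higher in delta cells than in beta cells (1.59, 95% CI 0.88 to 2.30, adjusted p = 0.00425), and no fold is given against a group at 0. The second call held whichever sample was left out (adjusted p up to 0.0146), and the first was lost without any 1 of Alpha 1 or 2 or Beta 1, 3 or 4 (adjusted p up to 0.0748).

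No alpha subunit of the GABA-A receptor, the partners with which beta subunits form the GABA binding site, passed the filter. The highest was Gabra4, at 0.220, 0.496, 1.62, 0.540 and 1.08 FPKM in alpha samples and 0.154, 0, 0.307 and 1.27 FPKM in beta samples, and it was listed at 0 in all 6 delta samples. Of genes chosen after their values were seen, Gabrg3 was at 0 to 1.39 FPKM in delta samples and at most 0.236 FPKM in the others. The neighbours of Gabrg1 on chromosome 5 did not share its level, since Gabra2 was listed at 0 throughout, Gabrb1 reached at most 0.286 FPKM, and Gabra4 was at 0 in delta samples, where Gabrg1 was at its highest. In a fit without the filter on low values, Gabra4 was lower in delta cells than in alpha cells (-0.79, adjusted p = 0.0449).

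**Figure D4:**
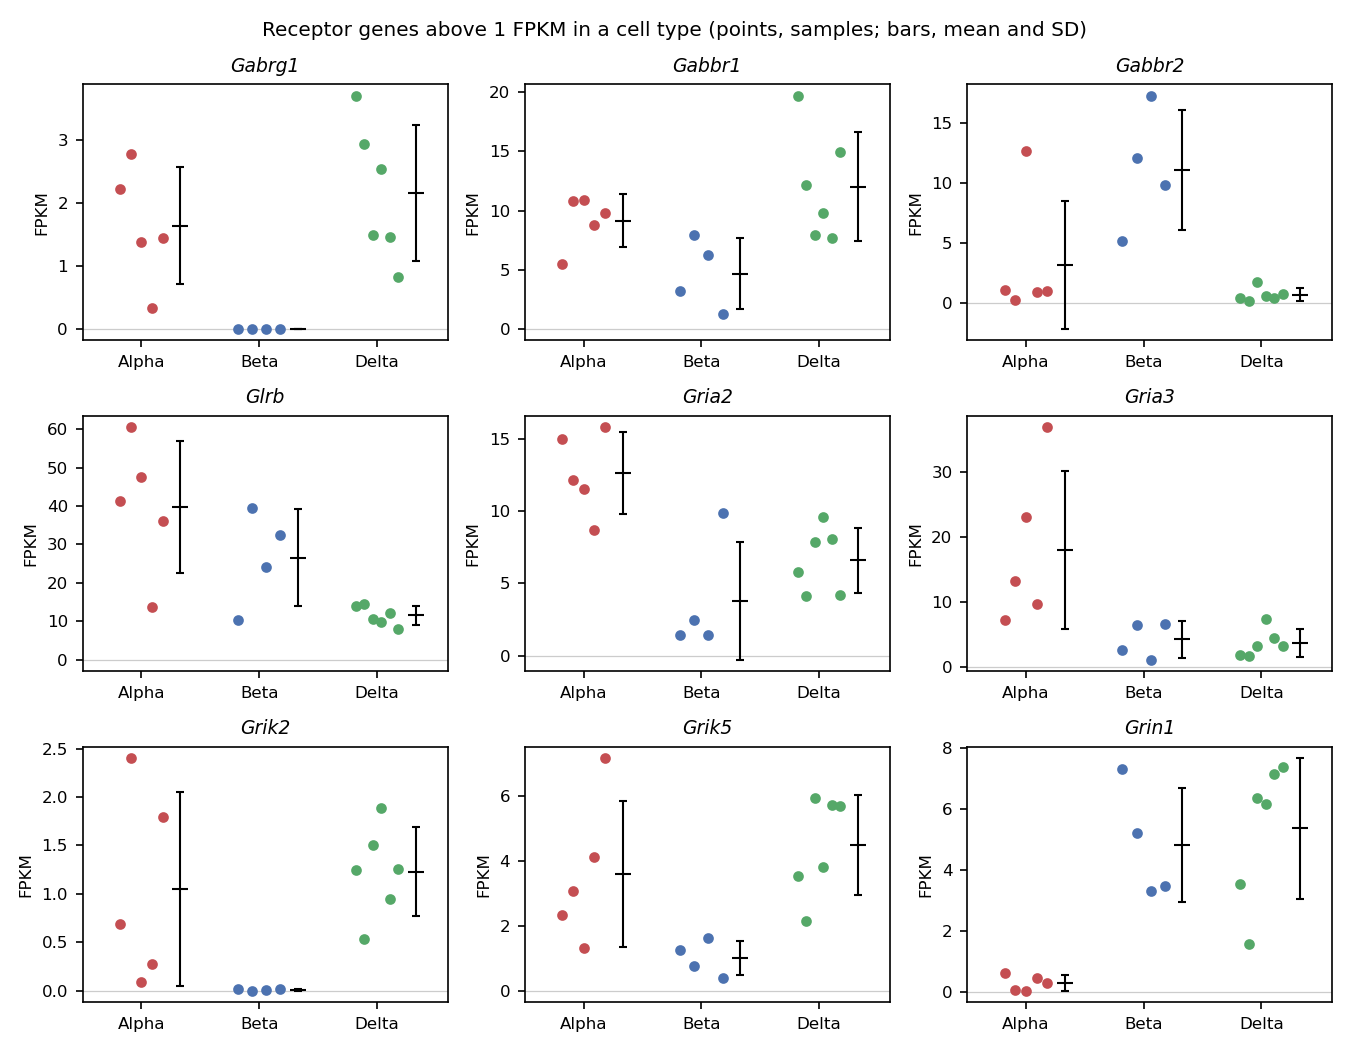
FPKM of 9 of the tested receptor genes in each sample (points, coloured by cell type) with the mean and SD of each cell type (bars, n = 5 alpha, 4 beta and 6 delta samples); each panel has its own linear scale. Gabrg1 sits at 0 in all beta samples, and Grin1 at or below 0.623 FPKM in all alpha samples.

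For glycine receptors the signal was that of the beta subunit, which anchors the receptor to gephyrin and forms channels together with alpha subunits. Glrb (ENSMUSG00000028020, chr3:80843599-80913660) was at 41.2, 60.5, 47.5, 13.7 and 36.1 FPKM in alpha samples, at 10.3, 39.4, 24.1 and 32.4 FPKM in beta samples and from 7.99 over 11.4 to 14.5 FPKM in delta samples. The alpha samples other than Alpha 4 lay above every delta sample, and beta samples overlapped both groups. Glrb was lower in delta cells than in alpha cells (-1.58, 95% CI -2.45 to -0.72, adjusted p = 0.024), a call lost without any 1 of Alpha 1, 2 or 3 or Delta 3, 4 or 6 (adjusted p up to 0.0722). It differed by -0.57 between beta and alpha cells (adjusted p = 0.479) and by -1.02 between delta and beta cells (adjusted p = 0.133). The last difference was called under median-ratio scaling (-1.41, adjusted p = 0.00902), under quantile normalization (-1.19, adjusted p = 0.0137), with the ribosomal set as a covariate (-1.08, adjusted p = 0.0373) and without Beta 1 (adjusted p = 0.0491). Glrb was on average 99.4% of the summed FPKM of the 5 glycine receptor genes in alpha, 98.3% in beta and 93.2% in delta samples. The alpha subunit Glra1, the ligand-binding subunit of the adult receptor, was listed at 0 in all alpha samples. It was at 0.270, 0.102, 0.182 and 0.305 FPKM in beta samples, and ran from 0.138 over 0.584 to 1.48 FPKM in delta samples. By mean level, the order of Glra1 over the cell types was the reverse of that of Glrb. The alpha subunit gene Glra4, chosen after its values were seen, had the same order as Glrb. Its means were 0.221, 0.122 and 0.0612 FPKM in alpha, beta and delta cells, with a highest value of 0.682 FPKM in Alpha 1. Without the filter, Glra1 was higher in delta cells than in alpha cells by 0.72 (adjusted p = 0.0132).

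The AMPA receptor genes were highest in alpha cells, with Gria2, whose edited subunit makes the channel poorly permeable to calcium, and Gria3 as the only members above 0. Gria2 (ENSMUSG00000033981, chr3:80681450-80802835) was at 14.95, 12.1, 11.5, 8.72 and 15.8 FPKM in alpha samples, at 1.42, 2.49, 1.44 and 9.89 FPKM in beta samples and from 4.12 over 6.82 to 9.60 FPKM in delta samples. Beta samples 1 to 3 lay below all other samples, and Beta 4 lay among the alpha samples. Gria2 was lower in beta cells than in alpha cells (-1.79, 95% CI -2.69 to -0.89, adjusted p = 0.0169), a call lost only without Beta 1 among the 15 samples left out in turn (adjusted p = 0.065). The call was also lost in limma fits of alpha and beta samples alone, with or without pairing by replicate number (adjusted p up to 0.196). Delta cells were intermediate, at -0.87 from alpha cells (adjusted p = 0.246) and 0.92 from beta cells (adjusted p = 0.148), and the second of these was called without Beta 4 (1.42, adjusted p = 0.0139). Gria2 lies 40764 bp from Glrb, on the same strand. By mean level both were highest in alpha cells, but Glrb was lowest in delta cells and Gria2 in beta cells.

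Gria3 (ENSMUSG00000001986, chrX:41400854-41678601) was at 7.20, 13.3, 23.1, 9.80 and 36.9 FPKM in alpha samples, at 2.71, 6.57, 1.15 and 6.70 FPKM in beta samples and from 1.73 over 3.34 to 7.48 FPKM in delta samples. Every alpha sample was above every beta sample, and all but 1 delta sample lay below the lowest alpha sample. Gria3 was lower in delta cells than in alpha cells (-1.90, 95% CI -2.87 to -0.92, adjusted p = 0.0165), and the call held whichever sample was left out (adjusted p up to 0.0482). It was lower in beta cells than in alpha cells (-1.82, 95% CI -2.89 to -0.74, adjusted p = 0.0393), which was lost without any 1 of Alpha 2, 3 or 5, Beta 1 or 3 or Delta 3, 5 or 6 (adjusted p up to 0.105). Between delta and beta cells the difference was -0.08 (95% CI -1.12 to 0.96, adjusted p = 0.943), and its sign changed without Beta 2, Beta 4, Delta 1 or Delta 2 (up to 0.16). The summed AMPA level was 30.7 ± 13.7 FPKM in alpha, 8.09 ± 6.30 FPKM in beta and 10.3 ± 4.14 FPKM in delta cells. A miRNA gene on the same strand overlaps an exon of each of Gria2 and Gria3 in the annotation, and how reads were shared between them was not tested. The one in Gria2, Gm25749, was at 81.4 FPKM in Alpha 5, 48.2 FPKM in Beta 1, 14.7 FPKM in Beta 4 and 25.7 to 41.1 FPKM in Delta 3 to 6 and was listed at 0 in the others. The one in Gria3, Gm22413, was at 9.43 FPKM in Alpha 1, 35.6 FPKM in Alpha 5 and 0 in the others.

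The kainate receptor genes Grik2 and Grik5, a subunit that forms channels by itself and a high-affinity subunit that needs a partner, were low in beta cells. Grik5 (ENSMUSG00000003378, chr7:25009849-25072346) was at 2.33, 3.07, 1.31, 4.12 and 7.18 FPKM in alpha samples, at 1.25, 0.777, 1.63 and 0.401 FPKM in beta samples and from 2.16 over 4.77 to 5.94 FPKM in delta samples, every delta sample being above every beta sample. It was higher in delta cells than in beta cells by 1.43 (95% CI 0.67 to 2.195, adjusted p = 0.0131), a call lost without Beta 4 (adjusted p = 0.0549) and under median-ratio scaling (1.07, adjusted p = 0.0889) and quantile normalization (0.96, adjusted p = 0.0800). Grik2 (ENSMUSG00000056073, chr10:49094833-49788766) was at 0.693, 2.40, 0.0892, 0.276 and 1.79 FPKM in alpha samples, at 0.0169, 0, 0.00716 and 0.0176 FPKM in beta samples and from 0.539 over 1.25 to 1.89 FPKM in delta samples. All beta samples lay below all other samples. Grik2 was higher in delta cells than in beta cells by 1.12 (95% CI 0.41 to 1.82, adjusted p = 0.0331), which was lost without any 1 of Beta 1, 3 or 4 or Delta 1, 3, 4 or 6 (adjusted p up to 0.0751). Neither gene was called between beta and alpha cells (Grik5 -1.10, adjusted p = 0.0851; Grik2 -0.88, adjusted p = 0.135) or between delta and alpha cells (Grik5 0.33, adjusted p = 0.699; Grik2 0.23, adjusted p = 0.782). Beta against alpha cells was, however, called for Grik2 with a pseudocount of 0.1 FPKM (adjusted p = 0.0205) and with quantile normalization (adjusted p = 0.0487), and for Grik5 with the ribosomal set as a covariate (adjusted p = 0.0119) and without Alpha 3 (adjusted p = 0.0397). Grik4, the highest of the other kainate genes, was at most 0.329 FPKM in alpha and 0.300 FPKM in delta samples and was listed at 0 in all beta samples.

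The obligatory NMDA receptor subunit gene Grin1 (ENSMUSG00000026959, chr2:25291181-25319187) separated alpha cells from the other islet cells. It was at 0.623, 0.0479, 0.0248, 0.450 and 0.292 FPKM in alpha samples, at 7.31, 5.21, 3.30 and 3.47 FPKM in beta samples and from 1.57 over 6.25 to 7.38 FPKM in delta samples. Every beta and delta sample was above every alpha sample. Grin1 was higher than in alpha cells by 2.15 in beta cells (95% CI 1.37 to 2.92, adjusted p = 0.00149) and by 2.22 in delta cells (95% CI 1.52 to 2.92, adjusted p = 0.000343), and both calls held whichever sample was left out (adjusted p up to 0.00851 and 0.00151). The difference between delta and beta cells was 0.07 (95% CI -0.68 to 0.82, adjusted p = 0.929), and its sign changed with the scaling (-0.28 with median-ratio size factors). An antisense gene, Grin1os, overlaps an exon of Grin1 and was at most 1.67 FPKM in any sample. The glutamate-binding or modulatory subunits that complete an NMDA receptor stayed below the filter. Grin3b, the highest of them, was at most 0.132 FPKM in alpha and 0.270 FPKM in beta samples and ran from 0.0795 over 0.284 to 1.22 FPKM in delta samples. Grin2c, chosen after its values were seen, was at most 0.136 FPKM in alpha and 0.0929 FPKM in beta samples and ran from 0.182 over 0.421 to 0.590 FPKM in delta samples, above all others. Without the filter it was higher in delta than in alpha (0.44, adjusted p = 0.00251) and beta cells (0.41, adjusted p = 0.00475). Grin2a was above 0 in 1 sample, Alpha 3, and Grin2b reached at most 0.0120 FPKM.

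The delta-type and metabotropic glutamate receptor genes gave little signal. Grm8, a presynaptic metabotropic receptor coupled to inhibitory G-proteins, was listed at 0 in every alpha and beta sample and ran from 0.0767 over 0.195 to 0.703 FPKM in delta samples. Without the filter Grm8 was higher in delta than in alpha (0.32, adjusted p = 0.0481) and beta cells (0.32, adjusted p = 0.0417). The summed level of all 8 metabotropic genes was at most 0.354 FPKM in alpha, 0.573 FPKM in beta and 0.836 FPKM in delta samples. With the depth of the beta samples unknown, a value of 0 there does not show that a transcript was absent.

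Genes that make, move or anchor these transmitters and receptors were examined as 72 partner genes in 10 lists, of which 35 passed the filter. The F-test called 14 of them, beside 16.0% of all genes. The lists were written with earlier results of these data known, and a gene high in only 1 cell type could pass the filter through it. The counts are therefore descriptions and no test of the lists. Beta against alpha cells called 2 higher and 5 lower (2.84% and 4.82% of all genes), delta against alpha cells 7 higher and 3 lower (5.33% and 1.48%), and delta against beta cells 12 higher and 2 lower (11.7% and 2.99%). The split depended on the scaling: with median-ratio size factors and with quantile normalization alike, delta against beta cells had 9 higher and 6 lower, while beta against alpha cells had 4 and 8 with the former and 3 and 8 with the latter. The median differences of the 35 were -0.34, 0.19 and 0.41, beside -0.13, 0.13 and 0.30 over all genes. The numbers of genes called in each list below are those of the F-test, to be read beside the same 16.0% of all genes. Most lists had few genes tested.

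Of the 9 genes for GABA synthesis, breakdown and transport, 3 were tested and 1 was called. Gad1, which encodes a glutamate decarboxylase that makes GABA, was at 24.4, 40.8, 10.6 and 14.6 FPKM in beta samples, at most 0.567 FPKM in alpha samples and at most 0.363 FPKM in delta samples. It was higher in beta cells than in alpha cells by 4.03 (adjusted p = 1.03e-06) and lower in delta cells than in beta cells (-4.18, adjusted p = 2.37e-07), and both calls held whichever sample was left out. The only tested gene of the 3 for glycine transport and serine racemase was not called.

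Of the 4 genes for auxiliary subunits of the GABA-B receptor, which alter its kinetics, Kctd8 and Kctd12b were tested, and both were called. Kctd8 ran from 4.27 over 5.28 to 7.87 FPKM in delta samples and was at most 0.887 FPKM in alpha and 0.427 FPKM in beta samples, without overlap (delta against alpha cells 1.95, adjusted p = 3.32e-05, delta against beta cells 2.30, adjusted p = 1.05e-05). Kctd12b was at 46.0, 25.7, 30.7, 19.7 and 34.9 FPKM in alpha samples and at 6.39, 24.3, 1.97 and 28.9 FPKM in beta samples, and at most 0.506 FPKM in delta samples (delta against alpha cells -4.63, adjusted p = 9.67e-06, delta against beta cells -3.17, adjusted p = 0.000566). Its difference between beta and alpha cells, -1.46, was not called (adjusted p = 0.110). Kctd16, too low to be tested, was at 0.0468 to 0.853 FPKM in alpha samples and 0.211 to 1.16 FPKM in delta samples and was listed at 0 in all beta samples. A miRNA gene on the opposite strand, Gm24368, overlaps an exon of Kctd8 and was at 25.2 to 99.6 FPKM in delta samples, 52.6 FPKM in Alpha 4 and 0 in the others.

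Of the 4 genes for GIRK channels, potassium channels that GABA-B receptors open through G-proteins, Kcnj3 and Kcnj6 were tested, and both were called with their lowest mean in beta cells. Kcnj3 was at 8.67, 14.4, 7.12, 5.29 and 14.4 FPKM in alpha samples and from 2.05 over 3.33 to 4.56 FPKM in delta samples. It was at 0.107 FPKM in Beta 4 and listed at 0 in the other beta samples. All 3 comparisons were called (beta against alpha cells -3.33, adjusted p = 5.48e-06, delta against alpha cells -1.29, adjusted p = 0.0105, delta against beta cells 2.04, adjusted p = 0.000316), whichever sample was left out. Kcnj6 was at most 1.00 FPKM in beta samples and between 2.63 and 10.2 FPKM in alpha samples, and ran from 1.50 over 4.05 to 5.79 FPKM in delta samples (beta against alpha cells -1.64, adjusted p = 0.0173, delta against beta cells 1.43, adjusted p = 0.0168). Its calls were lost without Beta 1 (adjusted p = 0.0547 and 0.053), and the second also under median-ratio scaling. Kcnj5, too low to be tested, was listed at 0 in all alpha samples and was between 0.0751 and 0.555 FPKM in beta samples and at most 0.332 FPKM in delta samples. Kcnj9 was at most 0.0779 FPKM in any sample. By mean level, beta cells had the most Gabbr2 and Kcnj5 and the least Kcnj3 and Kcnj6.

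Of the 12 genes for glutamate synthesis, breakdown and transport, 4 were tested and 2 called. Slc1a1, a glutamate uptake transporter, ran from 0.0583 over 1.25 to 1.89 FPKM in delta samples and was at most 0.0334 FPKM in the others. It was higher in delta than in alpha (1.02, adjusted p = 0.0293) and beta cells (1.03, adjusted p = 0.0245), calls that were lost without any 1 of Alpha 1 to 4 or Delta 3, 4 or 5 (adjusted p up to 0.0719) and without any 1 of Beta 1 or 4 or Delta 4 (adjusted p up to 0.0599). Its exons overlap 4430402I18Rik on the opposite strand, which was at 2.31 to 15.5 FPKM in delta samples, highest in Delta 2, where Slc1a1 was lowest of them, at 0.591 to 9.08 FPKM in alpha samples and at 0.740 to 14.5 FPKM in beta samples.

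Of the 12 AMPA receptor auxiliary genes, 4 were tested and 3 called, of which Olfm1 and Shisa6 had their highest mean in delta cells and Cacng4 in alpha cells. Olfm1, which encodes a secreted protein found in AMPA receptor complexes, was at 5.43, 4.20, 6.72, 7.16 and 14.8 FPKM in alpha samples, at 1.12, 1.00, 0.962 and 0.821 FPKM in beta samples and from 10.5 over 16.6 to 27.4 FPKM in delta samples. It was lower in beta cells than in alpha cells (-2.02, adjusted p = 0.00149) and higher in delta cells than in beta cells (3.12, adjusted p = 1.05e-05). Its difference between delta and alpha cells (1.10, adjusted p = 0.0437) was lost under both scalings and without any 1 of Alpha 1 to 4, Beta 1 or 4 or Delta 1, 2, 3, 4 or 6 (adjusted p up to 0.12). Shisa6, an AMPA receptor auxiliary subunit, ran from 0.298 over 3.13 to 7.17 FPKM in delta samples and was at most 0.122 FPKM in the others (delta against alpha cells 1.94, adjusted p = 0.00273, delta against beta cells 1.97, adjusted p = 0.00283). Cacng4, which encodes a transmembrane AMPA receptor regulatory protein, was at most 0.367 FPKM in beta samples and at 0.970 to 8.10 FPKM in alpha and 1.15 to 5.87 FPKM in delta samples (beta against alpha cells -1.72, adjusted p = 0.0359, lost without any 1 of Alpha 4 or 5 or Beta 1 to 4, adjusted p up to 0.0906). Cnih2, the tested gene that was not called (adjusted p = 0.139), also had its highest mean in alpha cells, at 1.62 FPKM against 0.330 FPKM in beta and 0.573 FPKM in delta cells. Neither of the 2 kainate receptor auxiliary genes was tested.

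Cbln4, a member of the cerebellin family of secreted synaptic organisers, ran from 3.19 over 9.08 to 19.1 FPKM in delta samples, was at most 0.613 FPKM in alpha samples and was listed at 0 in all beta samples (delta against alpha cells 3.03, adjusted p = 1.73e-05, delta against beta cells 3.23, adjusted p = 1.47e-05). Among 13 scaffold genes, 10 were tested and 2 called in the F-test, beside 16.0% of all genes. Shank2, a scaffold of glutamatergic synapses, ran from 1.82 over 6.88 to 10.9 FPKM in delta samples. It was at 2.32 FPKM in Alpha 3 and at most 0.138 FPKM in the other alpha samples, and at most 0.408 FPKM in beta samples (delta against alpha cells 2.31, adjusted p = 0.00119, delta against beta cells 2.53, adjusted p = 0.000715). Dlg3, which encodes the NMDA receptor scaffold SAP102, was at 2.84, 1.57, 0.409, 0.581 and 2.91 FPKM in alpha samples, at 7.45, 34.4, 8.96 and 8.24 FPKM in beta samples and from 3.74 over 4.96 to 10.9 FPKM in delta samples. Like Grin1, it was higher than in alpha cells in beta cells (2.40, adjusted p = 0.00458) and in delta cells (1.47, adjusted p = 0.0477), without overlap, though the second call was lost without any 1 of 11 samples (adjusted p up to 0.135). Shank3, named after its values were seen, was higher in delta cells than in beta cells by 1.06 (adjusted p = 0.0382), a call lost under either scaling (adjusted p 0.0895 and 0.155) and without any 1 of Beta 1, 3 or 4 or Delta 1, 4, 5 or 6 (adjusted p up to 0.106).

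Of the 9 genes for clustering of GABA-A and glycine receptors, 8 were tested and 1 was called in the F-test, beside 16.0% of all genes. Nlgn2, the neuroligin of inhibitory synapses, was at 2.05, 2.70, 0.742, 5.62 and 11.8 FPKM in alpha samples, at 2.29, 1.15, 1.44 and 0.648 FPKM in beta samples and from 4.77 over 7.25 to 25.7 FPKM in delta samples. It was higher in delta cells than in beta cells by 2.06 (adjusted p = 0.013), a call lost without Beta 4 (adjusted p = 0.0502). In the pairwise comparison 2 further genes of the list, named after their values were seen, were higher in delta cells than in beta cells, Lhfpl4 by 1.36 (adjusted p = 0.0348) and Clptm1 by 1.06 (adjusted p = 0.0423). Both calls were lost under either scaling (adjusted p 0.0580 to 0.214), the first also without any 1 of Beta 1, 3 or 4 or Delta 1, 3, 4, 5 or 6 (adjusted p up to 0.0974) and the second without any 1 of Beta 1 or 4 or Delta 1 to 6 (adjusted p up to 0.129).

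**Figure D5:**
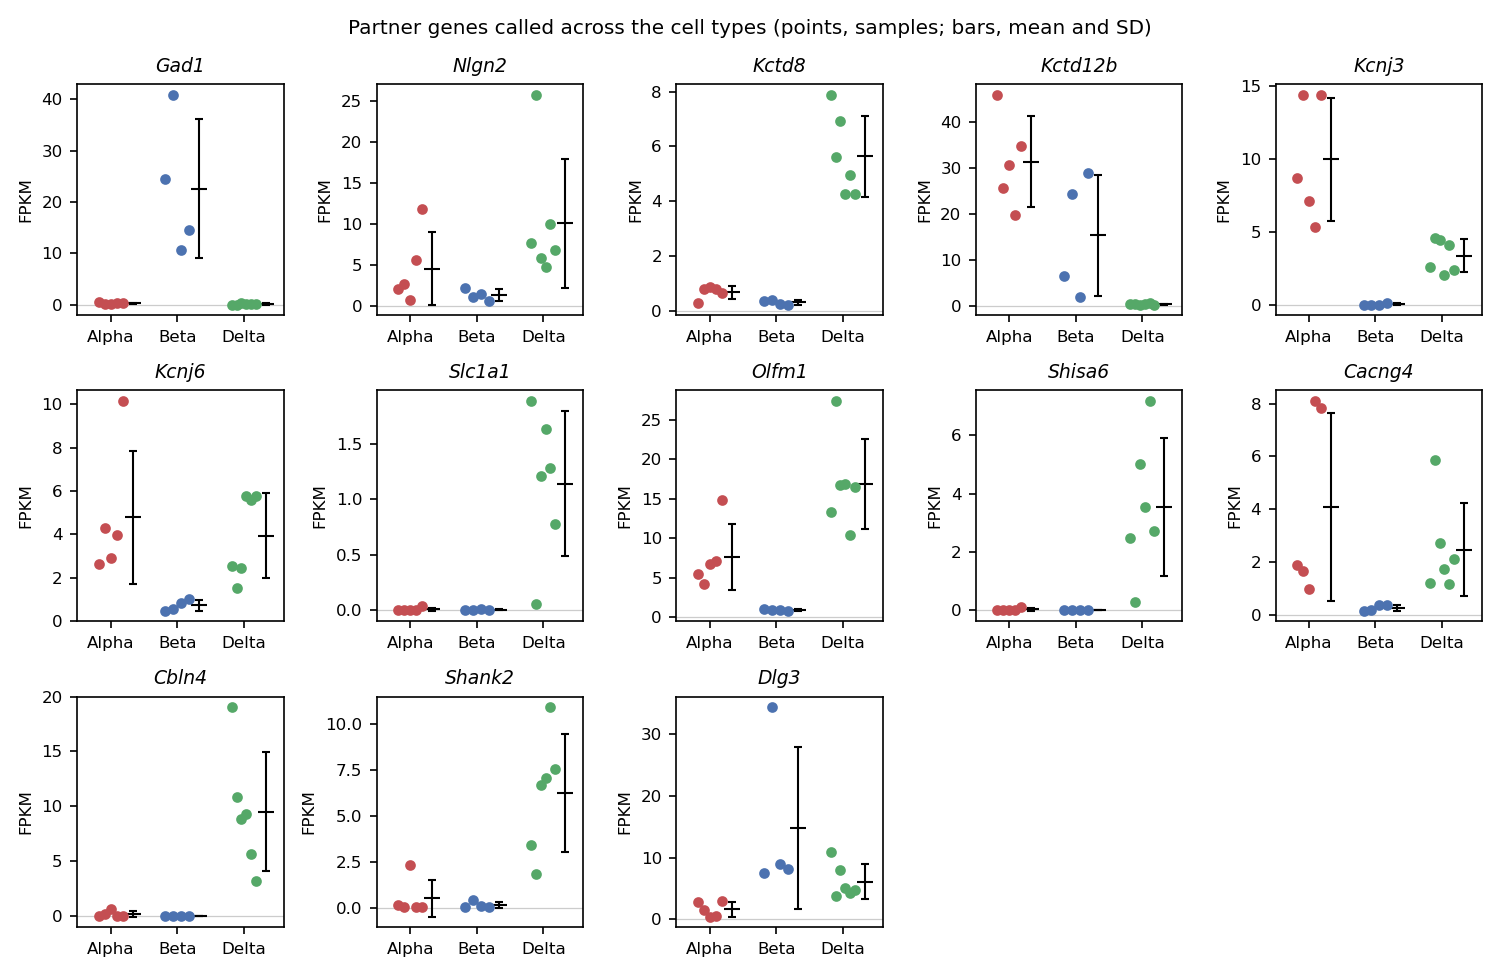
FPKM of 13 partner genes called by the F-test in each sample (points, coloured by cell type) with the mean and SD of each cell type (bars, n = 5 alpha, 4 beta and 6 delta samples); each panel has its own linear scale. Gad1 is raised in the 4 beta samples, Kcnj3 is near 0 in them, and Kctd8, Cbln4 and Shisa6 are raised in delta samples.

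The samples differed in ribosomal protein transcripts, whose summed FPKM was above 50000, a limit set with the values known, in Alpha 1 to 3, Beta 2 and Delta 1 and 2 and below it in the others. Within the samples below 50000 (2 alpha, 3 beta, 4 delta), mean Gabbr2 was 0.981, 10.8 and 0.915 FPKM in alpha, beta and delta cells, mean Grin1 0.371, 4.69 and 6.76 FPKM, and mean Gria3 23.4, 3.52 and 4.68 FPKM. Within the samples above it (3 alpha, 1 beta, 2 delta), mean Gabbr2 was 4.66, 12.1 and 0.330 FPKM, mean Grin1 0.232, 5.21 and 2.55 FPKM, and mean Gria3 14.5, 6.57 and 1.84 FPKM. The cell type with the highest mean of each of these genes was the same in both sets except for Grin1, which was highest in delta cells in the first set and in beta cells in the second. Glrb was higher in the second set in each cell type, at 49.7, 39.4 and 14.2 FPKM against 24.9, 22.3 and 10.2 FPKM.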

How the data were processed

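RNA was measured in 15 samples of sorted islet cells, grouped by the sample titles. The authors amplified the RNA, sequenced single reads, used CASAVA to demultiplex and TopHat (TopHat2 2.0.8 in the submitters' processing notes) to align to GRCm38, and deposited FPKM, that is, fragments per length of transcript and per number of reads mapped, per gene from Cufflinks 2.2.1. The amplification does not keep strand, the annotation release is not given in the sources used here, and reads from amplified RNA are not independent molecules. For the study's own comparison, the authors used edgeR on read counts. Those counts were not analysed here, and FPKM were tested as normalized values.

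From the deposited FPKM, log2(FPKM + 1) was fitted with limma 3.58.1 in R 4.3.3 (trended moderation, 1 mean per cell type, no covariate, all 15 samples). Genes with a mean above 1 FPKM in at least 1 cell type were tested (14405), with Benjamini-Hochberg adjustment and a threshold of 0.05 after the study's false discovery rate of 5%. The fit was tested on simulated data. Tables and figures were made with Python 3.11.15, pandas 2.3.3, numpy 2.4.6 and matplotlib 3.10.9. Coordinates are from GENCODE M21 (GRCm38).

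The receptor genes, the 72 partner genes and the tests were chosen with earlier results of these data known. Named are every receptor gene above 1 FPKM in a cell type, the highest of the others in each family, and partner genes called in the F-test, at most 3 per list; other genes named were chosen after their values were seen, and some receptor and partner genes are not reported here. The alternatives were no filter, a pseudocount of 0.1 FPKM, median-ratio and quantile scaling, the ribosomal set as a covariate, the replicate number as a block, fits of only the 2 cell types compared, and leaving out each sample in turn.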

Additional observations from a re-analysis of the deposited data

Results flagged for a closer look

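The values of 9 tested receptor genes were examined for a sample that stood apart within its cell type, by the gap to the nearest sample as a share of the group's range (Dixon's 95% critical values). Of 26 groups examined, 2 held such a sample, where chance gives about 1.3. Gabbr2 was at 12.7 FPKM in Alpha 3, against at most 1.07 FPKM in the other alpha samples. Gria2 was at 9.89 FPKM in Beta 4, against at most 2.49 FPKM in the other beta samples. The cause was not tested for either.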

How the results depend on the processing

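Over the 33 differences of the 11 tested receptor genes, the alternatives gave 641 values of the same direction and on the same side of the threshold, 71 that lost it, 11 that gained it and 13 that changed sign. The sign changes were all of small differences that were not called: Gabrg1 and Grik2 in delta against alpha cells under quantile normalization (-0.026 for each), Grin1 in delta against beta cells with median-ratio size factors (-0.28), quantile normalization (-0.34), the replicate block (-0.11) and samples left out in turn (-0.058 to 0.31), and Gria3 in delta against beta cells with samples left out (-0.45 to 0.16). Without the filter on low values, which tests more genes, the receptor genes called were 13 in the F-test, 3 in beta against alpha cells and 9 in delta against alpha cells, beside 2398, 969 and 1121 of 23792 genes. Fitting only alpha and beta cells, with fewer samples, called 1 receptor gene (6 at an unadjusted p under 0.05) and 4 partner genes, beside 407 of 13254 genes in all. For beta against alpha cells, the partner genes called were 12 with median-ratio size factors and 11 with quantile normalization, as calls over all 14405 genes rose from 1104 to 2072 and 2056. Leaving out each sample in turn gave 2 to 5 receptor and 4 to 9 partner genes in beta against alpha cells, 3 to 4 and 7 to 10 in delta against alpha cells, 3 to 7 and 9 to 16 in delta against beta cells, and 6 to 8 and 12 to 17 in the F-test. Calls over all genes moved as well, out of 14316 to 14501 genes tested. They ranged from 651 to 1698 in beta against alpha cells and from 792 to 1115 in delta against alpha cells. In delta against beta cells they ranged from 1420 to 2643, and in the F-test from 1694 to 2884. The fewest receptor calls came in beta against alpha cells without Alpha 2, Beta 1 or Beta 3 (2 each) and in delta against beta cells without Delta 1 or Delta 4 (3 each), and the fewest partner calls without Beta 1 (4 and 9) and, in delta against beta cells, without Beta 4 (9). The labels tie no replicate number to a shared sort, and the deviations of same-numbered alpha and beta samples correlated at -0.04, 0.27, -0.15 and 0.07 for numbers 1 to 4, so the numbers were not taken as pairs. Both kinds of cell were collected in Glu-Venus sorts, and a sort shared by some samples cannot be told from the labels. With the replicate number as a block over all samples, the receptor genes called were 5 in the F-test and 2 in delta against beta cells, beside 2198 and 2001 of 14405 genes. With alpha and beta samples paired by number in a replicate block, limma called 0 receptor genes (5 at an unadjusted p under 0.05, Grin1 at an adjusted p of 0.0542) and 2 partner genes, beside 201 of 13122 genes in all. Depth could not be resolved for any beta sample, which limits what values near 0 show there.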
